A study of Caenorhabditis elegans with 16 samples.

Results

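Wild-type *Caenorhabditis elegans* larvae refed for 15 h were compared with larvae refed for 3 h, using the 4 of the 16 RNAseq libraries that the labels place in these groups, 2 at each time. All were of the N2 strain and in the first larval stage (L1), at 20 °C. They had hatched from bleached eggs in M9 buffer without food, and by the study's methods had been starved for 33 h when they were moved to *C. elegans* maintenance medium (CeMM), a liquid diet that contains no bacteria. Wild-type L1 larvae that were starved and not refed (2 libraries) showed which changes after 3 h undid the first response to food and which added to it. The *hlh-30(lf)* strain, which carries the *tm1978* deletion in the gene for the bHLH transcription factor HLH-30, had been starved and refed in the same way and gave 2 libraries at 3 h and 2 at 15 h. Every library came from a pool of many whole larvae, so a lower transcript level can stand for fewer cells of a type or for less RNA per cell, and these cannot be told apart. No group was kept in M9 for the additional 12 h, so refeeding and the time since hatching cannot be told apart. The study's methods describe a replicate as a biological replicate run on a separate occasion with its controls. Whether the library numbers mark such occasions is not given. The p-values rest on the spread between the 2 libraries of a group, with its estimate shared across the 8 groups of the series.

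L1 larvae that hatch without food stop development before their first postembryonic cell divisions and can wait for weeks. In this arrest, low insulin-like signaling leaves the transcription factor DAF-16 active, and lysosomal lipases and autophagy release stored fat and protein. Food raises insulin-like signaling and TOR activity, the intestine takes up peptides and lipids, ribosomes are made, and cell divisions and the first molt follow. Fatty acids are broken down in mitochondria, and in peroxisomes, which also shorten the side chains of the ascaroside pheromones. HLH-30, the worm counterpart of mammalian TFEB, turns on lysosomal and autophagy genes in starvation.

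The 4 libraries held between 36010034 and 40891427 counts, so 3 counts corresponded to between 0.0734 and 0.0833 CPM (counts scaled to the library total) in any of them. Levels below are CPM after TMM normalisation, given for replicates 1 and 2 in that order. *hlh-30* itself (chromosome IV, 4014799 to 4028127, in WBcel235 coordinates as are all positions below) stood at 680.2 and 744 CPM at 3 h and at 691 and 528 CPM at 15 h in wild type. Its groups overlapped (log2 fold change -0.22 ± 0.10 (SE), edgeR adjusted p = 0.148). In the *hlh-30(lf)* libraries it was at 469.7 and 488 CPM at 3 h and 385 and 370.2 CPM at 15 h, and counts over the whole gene do not resolve the deleted part. Genes of laid or growing embryos were near the floor throughout: the 10 listed summed to 4.23 and 4.21 CPM at 3 h and 2.92 and 3.79 CPM at 15 h.

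One library at each time stood apart. Replicate 2 at 15 h held 12.9% of its counts in rRNA genes against 3.85% in replicate 1, and its TMM factor was 0.799 against 0.949. It also differed from replicate 1 by gene length: the shortest eighth of genes of at least 10 CPM on average (174 to 754 nt) was higher in replicate 2 by a median of 0.26 on the log2 scale, and the longest eighth (3240 nt and over) had a median difference of -0.09. Replicate 1 at 3 h held more transcripts that are known from adult and molting worms than replicate 2. For the adult or maternal genes replicate 1 was also the higher in starvation, where they summed to 95.5 and 31.7 CPM, and at 15 h. The yolk protein gene *vit-2* was at 33.6 and 0.482 CPM in the 3 h libraries and 7.11 and 0.183 CPM in the 15 h libraries, and the 26 adult or maternal genes tested summed to 81.9 and 17.9 CPM at 3 h and 24.3 and 13.5 CPM at 15 h. The 19 furrow and related collagens of the molt (*sqt-3*, *dpy-17* and others) summed to 233 and 26.7 CPM at 3 h and 31.4 and 44.8 CPM at 15 h, and 0 rose and 0 fell. The part of these libraries in the results was not tested beyond leaving each of them out, and values without them are given where a named gene lost its call or where a count above 3 moved by more than 1.5 times.

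**Figure D1:**
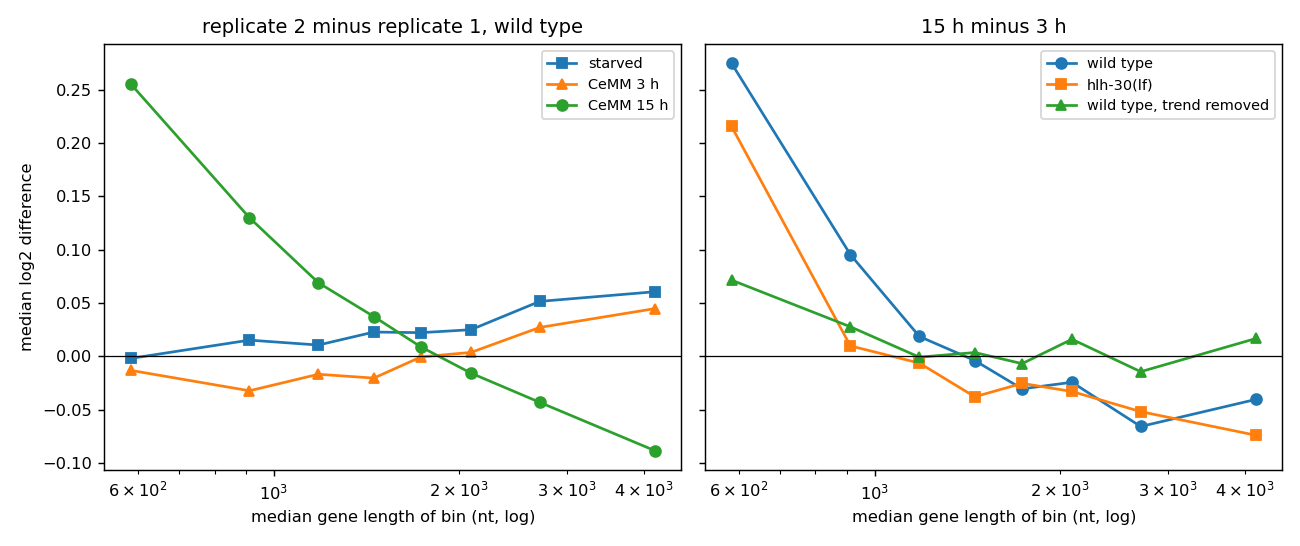
Median log2 difference by gene length over the genes of at least 10 CPM on average, in 8 length bins of about equal size. Left, replicate 2 minus replicate 1 within the wild-type starved, 3 h and 15 h groups. The 15 h pair runs from 0.26 in the shortest bin to -0.09 in the longest, and the other pairs stay between -0.03 and 0.06. Right, 15 h minus 3 h in wild type and *hlh-30(lf)*, and in wild type after the trend was removed, with shortest-bin medians of 0.27, 0.22 and 0.07.

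Of the 30177 genes tested, 2679 (8.88%) were higher and 1852 (6.14%) lower at 15 h than at 3 h, 15.0% in all (edgeR quasi-likelihood test, adjusted p at most 0.05). Among the 8595 genes of at least 10 CPM on average over all 16 libraries of the series, 1734 (20.2%) were higher and 1227 (14.3%) lower. List counts below are to be read beside both sets of shares. Few of the changes were large. With the test set against a 2-fold change, 182 genes were higher and 94 lower. Leaving out replicate 2 at 15 h gave 1789 higher and 1258 lower, of which 1709 and 1151 were among the genes called with all libraries. Without replicate 1 at 3 h the counts were 1856 higher and 1213 lower. The split between directions depended on the scaling of the libraries: rises were 59.1% of the calls with TMM factors and 24.2% with library size alone, which took the median of all genes of at least 10 CPM from 0.01 to -0.23 on the log2 scale.

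The first step, from starvation to 3 h of CeMM, had been wider, with 4530 genes higher (15.0%) and 4559 lower (15.1%). Its 3 h libraries are the ones that the second step starts from, so an error in them would push the steps in opposite directions, and the counts that follow are a description. At 3 h 30.1% of the tested genes differed from starvation, and at 15 h 29.2% did (edgeR adjusted p at most 0.05). Of the genes that were higher at 3 h than in starvation, 1248 (27.5%) were lower again at 15 h. Of these transient genes 513 were no longer called against starvation at 15 h, 699 were still above it and 36 were below it. The median gene of the group had gained 1.12 on the log2 scale by 3 h and then lost 0.63. The mirror group, lower at 3 h and higher again at 15 h, held 1318 genes (28.9% of the early falls), and 617 of them were not called against starvation at 15 h. Changes that built up in one direction were fewer: 517 genes rose in both steps (11.4% of the early rises) and 153 fell in both (3.36% of the early falls). Those 517 were 340 without replicate 2 at 15 h and 311 and 321 without replicates 1 and 2 at 3 h, and the 153 were 101, 71 and 103. A larger share had no second call, 2765 of the early rises (61.0%) and 3088 of the early falls (67.7%). A further 844 genes rose and 451 fell with no call in the first step, and without replicate 2 at 15 h these were 450 and 194. Without replicate 1 at 3 h the late falls were 242.

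The largest falls after 3 h were in genes that feeding had just raised, among them genes of defence and detoxification. *irg-3*, a gene induced by infection (chromosome V, 2592548 to 2595089), was at 24.7 and 27.9 CPM in starvation, 331 and 280.4 CPM at 3 h and 25.7 and 31.7 CPM at 15 h. The 15 h values lay at the starved level, 10.7-fold below 3 h (log2 fold change -3.41 ± 0.20, edgeR adjusted p = 5.11e-07). *ugt-37*, a member of the UDP-glucuronosyltransferase family that conjugates small molecules, went from 26 and 20.0 CPM to 2.31 and 1.99 CPM (log2 fold change -3.42 ± 0.22, edgeR adjusted p = 4.89e-09). The C-type lectin gene *clec-4* went from 31 and 29.4 CPM to 3.48 and 4.28 CPM (log2 fold change -2.96 ± 0.13, edgeR adjusted p = 6.73e-15). Neither of these had exceeded 1 CPM in a starved library. *lys-4*, of the lysozyme family, stood at 28 and 25.6 CPM at 3 h and 4.53 and 4.62 CPM at 15 h (log2 fold change -2.55 ± 0.27, edgeR adjusted p = 0.000135), below its starved values of 5.64 and 7.71 CPM. *pcp-2*, of the prolyl carboxypeptidase family, went from 108 and 116 CPM to 22.9 and 19.5 CPM (log2 fold change -2.40 ± 0.16, edgeR adjusted p = 3.39e-07), and *ctsa-3.1*, named for its likeness to cathepsin A, from 174 and 180.1 CPM to 38.6 and 37.5 CPM (log2 fold change -2.22 ± 0.10, edgeR adjusted p = 7.44e-15). Both remained above their starved levels of 2.52 and 4.41 CPM and 13.9 and 16.9 CPM. *C06G1.1* and *T16G12.1* completed the 8 largest falls, with log2 fold changes of -2.66 and -2.22. The 3 h and 15 h groups of all 8 genes were apart, which their selection required.

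The largest rises were mixed. *dao-6*, named for its overexpression in dauer larvae and ageing adults (chromosome III, 9735263 to 9736028), was at 147 and 114 CPM in starvation, 1.97 and 2.06 CPM at 3 h and 20.0 and 16.5 CPM at 15 h, a partial return (log2 fold change 3.18 ± 0.15, edgeR adjusted p = 3.46e-14). *clec-61*, another C-type lectin gene, rose from 2.8 and 3.05 CPM to 29.7 and 33.7 CPM (log2 fold change 3.44 ± 0.16, edgeR adjusted p = 1.12e-14), and *scl-2*, which encodes a secreted protein of the SCP family, from 15.2 and 19.6 CPM to 154 and 173 CPM (log2 fold change 3.23 ± 0.15, edgeR adjusted p = 9.64e-11). The groups of all 3 genes were apart, again by selection. Among the others, *W02D7.11*, *F15E6.3*, *Y65B4BL.1* and *F48C1.9* had log2 fold changes of 3.35, 3.12, 2.99 and 2.86. *W02D7.11* followed the course of *dao-6*, with 63.5 and 63.4 CPM in starvation, 1.65 and 2.06 CPM at 3 h and 19.6 and 18.3 CPM at 15 h, and so did the cytochrome P450 gene *cyp-34A10*, with 22.2 and 23.4, 2.07 and 1.75 and 12 and 10.7 CPM (log2 fold change 2.57 ± 0.18, edgeR adjusted p = 4.92e-11). *F18E3.11* was at 3.04 and 5.35 CPM at 3 h and at the unequal values of 15.2 and 50.6 CPM at 15 h (log2 fold change 2.97 ± 0.52, edgeR adjusted p = 0.00502), and its call was lost without replicate 1 at 3 h (edgeR adjusted p = 0.0535).

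**Figure D2:**
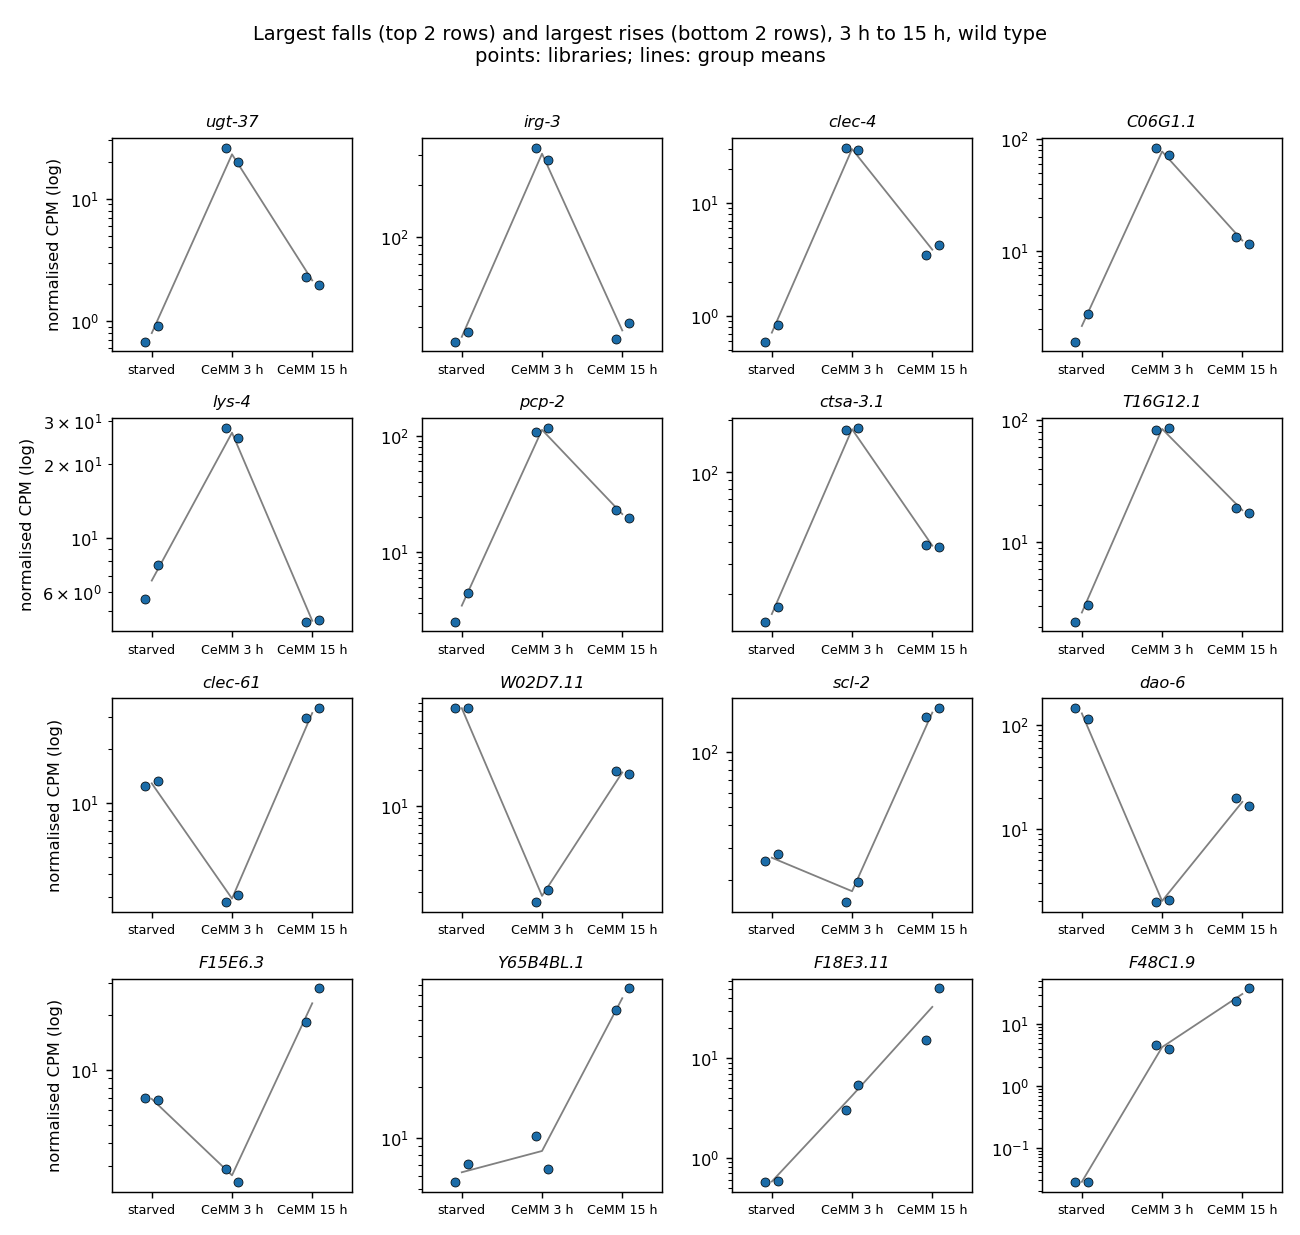
Levels (TMM-normalised CPM, log axis) of the 8 genes with the largest falls and the 8 with the largest rises from 3 h to 15 h in wild type. Each point is 1 library, at 3 times: starved, CeMM 3 h and CeMM 15 h, joined through the group means. In *irg-3* the 3 h points (331 and 280) stand above both other times, and in *dao-6* the 3 h points (1.97 and 2.06) stand below them.

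Some rises built up from starvation through both times. *acs-2*, which encodes an acyl-CoA synthetase that activates fatty acids for mitochondrial breakdown (chromosome V, 15567394 to 15569889), was at 1.5 and 2.39 CPM in starvation, 149.8 and 158 CPM at 3 h and 1061 and 955 CPM at 15 h. Its second step was a 6.56-fold rise (log2 fold change 2.71 ± 0.40, edgeR adjusted p = 0.00188) on top of the first (log2 fold change 6.30 ± 0.53, edgeR adjusted p = 1.49e-05). *hacd-1*, a hydroxyacyl-CoA dehydrogenase of the same pathway, was at 3.29 and 2.55, 44 and 33.6 and 236 and 227 CPM at the 3 times (log2 fold change 2.58 ± 0.20, edgeR adjusted p = 6.2e-06 for the second step). The 3 groups of each gene were apart. The other leading genes of this group were *F48C1.9* and *F18E3.11*, given above, and *F18E3.13*, whose call was lost without replicate 1 at 3 h (log2 fold change 2.84, edgeR adjusted p = 0.00559, and 0.0578 without that library).

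Genes that stood near their starved level at 3 h and moved later formed a smaller group. With the 3 h change also under 0.25 on the log2 scale, it held 415 rises and 175 falls. *cest-24*, of the carboxylesterase family, rose from 28.7 and 26.5 CPM to 89.5 and 111 CPM (log2 fold change 1.86 ± 0.10, edgeR adjusted p = 4.56e-13), and *lec-4*, a galectin gene, from 25.9 and 26.2 CPM to 69.4 and 85 CPM (log2 fold change 1.57 ± 0.10, edgeR adjusted p = 6.35e-12). Neither gene's groups overlapped. *dod-3*, named as a gene downstream of DAF-16, was at 26 and 35.4 CPM at 3 h and 80.0 and 123 CPM at 15 h (log2 fold change 1.73 ± 0.33, edgeR adjusted p = 0.00796), and its call was lost without replicate 1 at 3 h (edgeR adjusted p = 0.0734). The late falls were led by *C17H12.8* and *W02B12.1*, with log2 fold changes of -2.16 ± 0.13 and -1.83 ± 0.13. *ncx-7*, of the sodium/calcium exchanger family, fell from 31.1 and 24.6 CPM to 13 and 13 CPM (log2 fold change -1.10 ± 0.12, edgeR adjusted p = 1.43e-07), and *adk-1*, an adenosine kinase gene, from 595 and 646 CPM to 295 and 315 CPM (log2 fold change -1.02 ± 0.08, edgeR adjusted p = 1.58e-10). In the group that fell in both steps, *asm-3*, an acid sphingomyelinase gene, went from 58.8 and 73.1 CPM in starvation through 14.5 and 16.6 CPM at 3 h to 4.62 and 3.92 CPM at 15 h (log2 fold change -1.86 ± 0.14, edgeR adjusted p = 1.98e-10 for the second step). *txt-4* went from 26.6 and 25.7 CPM through 6.42 and 4.39 CPM to 1.11 and 1.96 CPM (log2 fold change -1.82 ± 0.23, edgeR adjusted p = 2.04e-05). Each of the 3 groups was apart from the next in both genes.

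Genes of peroxisomal fatty acid oxidation made up a transient group. All 12 of the 12 tested had been higher at 3 h than in starvation (median log2 fold change 2.51), and 8 then fell and 0 rose (median -0.99), against 6.14% lower among all genes and 14.3% among those of at least 10 CPM. Without any one of the 4 libraries 7 of them still fell. The acyl-CoA oxidase gene *acox-1.1*, for the first step of the pathway (chromosome I, 12938555 to 12942219), was at 11.8 and 15.1 CPM in starvation, 489.9 and 446 CPM at 3 h and 111 and 114 CPM at 15 h (log2 fold change -2.06 ± 0.10, edgeR adjusted p = 2.3e-14). *maoc-1*, the enoyl-CoA hydratase gene, was at 136 and 113 CPM and then 39.8 and 37.5 CPM (log2 fold change -1.69 ± 0.10, edgeR adjusted p = 9.6e-13). *dhs-28*, for the next dehydrogenase step, was at 451 and 415 CPM and then 177 and 189 CPM (log2 fold change -1.24 ± 0.09, edgeR adjusted p = 3.78e-11). The thiolase gene *daf-22*, which ends the cycle and is needed for ascaroside pheromone, was at 18 and 22.8 CPM in starvation, 270.0 and 244 CPM at 3 h and 85.9 and 87.5 CPM at 15 h (log2 fold change -1.57 ± 0.10, edgeR adjusted p = 3.01e-12). None of these genes had overlapping groups, and all 4 stayed above starvation at 15 h. *acox-1.2* and *acox-3* fell as far (log2 fold changes -1.88 and -1.56). *acox-1.6* was level, at 32.1 and 29.4 CPM and 29.4 and 31.5 CPM (log2 fold change -0.01 ± 0.10, edgeR adjusted p = 1), and *acox-1.3*, *acox-1.4* and the catalase gene *ctl-2* did not pass the test (log2 fold changes -0.29, -0.35 and -0.63).

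In the wider list of fatty acid activation and β-oxidation, 8 of 54 genes rose and 20 fell (median -0.27), and 20 of the falls followed an early rise. The acyl-CoA synthetase genes parted. *acs-7* fell from 159 and 145 CPM to 49.7 and 43.3 CPM (log2 fold change -1.71 ± 0.12, edgeR adjusted p = 6.34e-10), whereas *acs-19*, of the same list and related to acetyl-CoA synthetases, rose from 194 and 187 CPM to 547 and 576 CPM (log2 fold change 1.56 ± 0.08, edgeR adjusted p = 1.15e-13) and *acs-2* rose as above. Of the 15 listed lipid binding genes 2 rose and 2 fell, against 8.88% and 6.14% of all genes. The fatty acid binding protein gene *lbp-1* fell from 692 and 616 CPM to 308 and 328 CPM (log2 fold change -1.04 ± 0.10, edgeR adjusted p = 6.96e-09).

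Of the 7 desaturase genes, which put double bonds into fatty acids, 4 rose and 1 fell. *fat-4*, the Δ5 desaturase gene, was at 282 and 259.7 CPM in starvation, 609.5 and 582 CPM at 3 h and 940.3 and 962 CPM at 15 h (log2 fold change 0.67 ± 0.08, edgeR adjusted p = 4.48e-07). *fat-2*, the Δ12 desaturase gene, went from 1283 and 1343 CPM to 1841 and 2297 CPM (log2 fold change 0.66 ± 0.09, edgeR adjusted p = 4.26e-06), and *fat-3*, the Δ6 desaturase gene, from 650.2 and 648 CPM to 870.2 and 816 CPM (log2 fold change 0.38 ± 0.08, edgeR adjusted p = 0.000722). All 3 sets of groups were apart. *fat-5*, a palmitoyl-CoA desaturase gene, had made the widest early step, from 0.737 and 0.694 CPM to 202 and 203 CPM, and was at 196 and 231 CPM at 15 h, with overlapping groups (log2 fold change 0.08 ± 0.13, edgeR adjusted p = 0.862). *fat-6*, a stearoyl-CoA desaturase gene, had gone down in the first step, from 541 and 556 CPM to 259 and 221 CPM, and was at 317 and 440.5 CPM at 15 h (log2 fold change 0.66 ± 0.17, edgeR adjusted p = 0.0219), a call lost without replicate 2 at 15 h and without replicate 2 at 3 h (edgeR adjusted p = 0.113 and 0.123). *fat-1*, the ω-3 desaturase gene, was at 185 and 187 CPM in starvation, 571 and 634 CPM at 3 h and 631 and 649.7 CPM at 15 h, and its second step did not pass the test (log2 fold change 0.09 ± 0.08, edgeR adjusted p = 0.644). *fat-7*, the other stearoyl-CoA desaturase gene and the one that fell, was near the floor, at 0.56 and 0.406 CPM at 3 h and 0.0585 and 0.0918 CPM at 15 h (edgeR adjusted p = 0.00269). Among the 10 elongase genes 1 rose and 2 fell, against 8.88% and 6.14% of all genes. The 2 were *elo-1*, from 815 and 784 CPM to 539 and 593 CPM (log2 fold change -0.50 ± 0.08, edgeR adjusted p = 5.05e-05), and *elo-3*, from 119.8 and 109 CPM to 62.9 and 65.8 CPM (log2 fold change -0.83 ± 0.08, edgeR adjusted p = 1.87e-08). *let-767*, a ketoacyl-CoA reductase gene of long chain synthesis, rose from 166 and 169 CPM to 241 and 293 CPM (log2 fold change 0.67 ± 0.09, edgeR adjusted p = 2.81e-06).

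The lysosomal lipase genes moved the other way from the peroxisomal ones. Of the 8 *lipl* genes 5 rose and 0 fell (median 0.72, against 8.88% higher among all genes), and the same count was found without any one of the 4 libraries. *lipl-2* (chromosome V, 9791571 to 9793391) was at 75.8 and 86.1 CPM in starvation, 14.9 and 15.1 CPM at 3 h and 68.3 and 76.5 CPM at 15 h, so that the early drop was undone (log2 fold change 2.27 ± 0.12, edgeR adjusted p = 7.97e-14). *lipl-3* was near 0 in starvation, with 0.227 and 0.555 CPM, then at 9.9 and 9.85 CPM and 28.1 and 28.3 CPM (log2 fold change 1.51 ± 0.17, edgeR adjusted p = 2.87e-07). The groups of both genes were apart. *lipl-5*, at 79.3 and 87.6 CPM and then 133 and 168 CPM (log2 fold change 0.85 ± 0.12, edgeR adjusted p = 2.77e-05), followed the course of *lipl-2*. *lipl-7* was at 27.1 and 27.4 CPM and then 40.9 and 41.2 CPM (log2 fold change 0.59 ± 0.09, edgeR adjusted p = 2.71e-05), and *lipl-4* at 0.292 and 0.33 CPM and then 3.25 and 1.59 CPM (log2 fold change 2.95 ± 0.39, edgeR adjusted p = 5.84e-06). *lipl-1*, *lipl-6* and *lipl-8* did not pass the test (log2 fold changes -0.54, -0.10 and 0.26). Of the 12 fat storage genes 3 rose and 2 fell, against 20.2% higher and 14.3% lower among genes of at least 10 CPM. In this list *plin-1*, the perilipin gene, was at 567 and 522 CPM and then 392 and 421 CPM (log2 fold change -0.42 ± 0.14, edgeR adjusted p = 0.0754), and *atgl-1*, the adipose triglyceride lipase gene, at 75.6 and 65.9 CPM and 76.6 and 82 CPM (log2 fold change 0.16 ± 0.18, edgeR adjusted p = 0.706). Neither passed the test, although the groups were apart in both genes.

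**Figure D3:**
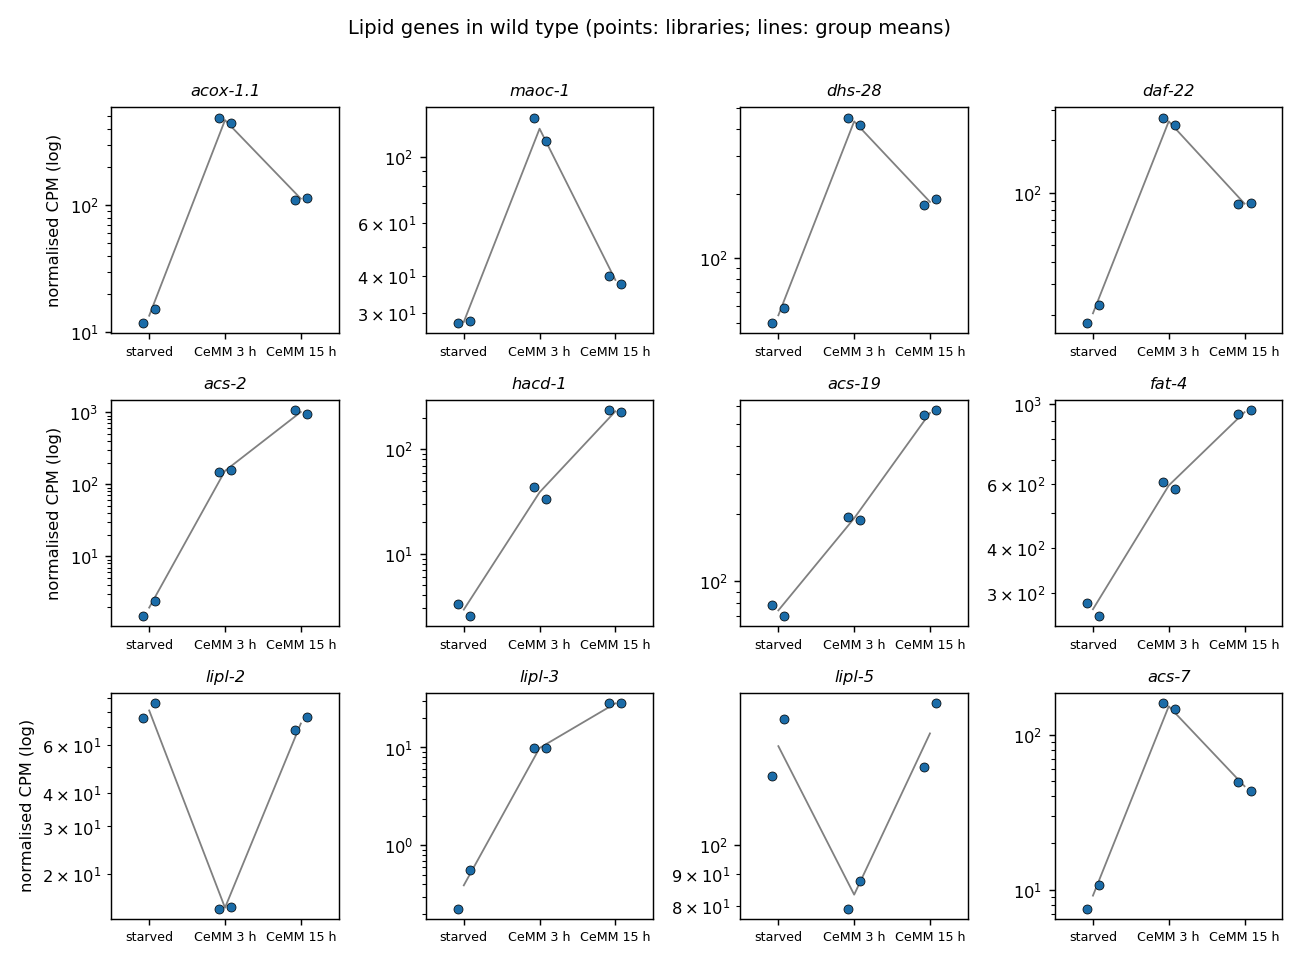
Levels (TMM-normalised CPM, log axis) of lipid genes in wild-type libraries in starvation, at CeMM 3 h and at CeMM 15 h, 1 point per library and lines through the group means. The peroxisomal genes *acox-1.1*, *maoc-1*, *dhs-28* and *daf-22* peak at 3 h, *lipl-2* and *lipl-5* dip at 3 h, and *acs-2*, *hacd-1*, *lipl-3* and *fat-4* rise through both steps.

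The methionine cycle, which makes S-adenosylmethionine for methylation and phosphatidylcholine synthesis, was higher at 3 h than in starvation in 10 of 15 genes. After 3 h 9 of the 15 fell while 1 rose (median -0.58, against 6.14% lower among all genes and 14.3% among those of at least 10 CPM). *sams-1*, an S-adenosylmethionine synthetase gene (chromosome X, 11965962 to 11969784), was at 369 and 286 CPM in starvation, 1259 and 1271 CPM at 3 h and 331 and 327 CPM at 15 h (log2 fold change -1.94 ± 0.09, edgeR adjusted p = 2.74e-14). *metr-1*, the methionine synthase gene, was at 12 and 13.3, 362 and 357 and 101 and 118.8 CPM at the 3 times (log2 fold change -1.71 ± 0.09, edgeR adjusted p = 8.8e-14). At 15 h *sams-1* lay within its starved range and *metr-1* above its own. The related *sams-3* and the methylenetetrahydrofolate reductase gene *mthf-1* had log2 fold changes of -1.61 and -1.33. In the propionate list, which includes the vitamin B12 dependent route, 5 of 11 genes rose and 3 fell (median -0.05), and with library size alone 2 rose and 5 fell. *pcca-1* and *pccb-1*, for the subunits of propionyl-CoA carboxylase, went from 446 and 503 to 651 and 667 CPM (log2 fold change 0.47 ± 0.09, edgeR adjusted p = 0.000171) and from 439 and 509.6 to 659.8 and 706 CPM (log2 fold change 0.53 ± 0.09, edgeR adjusted p = 4.5e-05), and the methylmalonyl-CoA mutase gene *mmcm-1* from 197 and 217 to 305 and 301 CPM (log2 fold change 0.55 ± 0.09, edgeR adjusted p = 2.63e-05). *acdh-1*, of the propionate shunt used when vitamin B12 is low, was at 10.6 and 7.46 CPM and then 5.47 and 3.73 CPM and did not pass the test (edgeR adjusted p = 0.064).

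Of the 33 ribosome biogenesis genes 20 had risen and 9 fallen by 3 h. From 3 h to 15 h 22 of 33 fell and 1 rose (median -0.52, against 6.14% lower among all genes and 14.3% among those of at least 10 CPM), 18 of the falls after an early rise, and between 19 and 21 fell when any one of the 4 libraries was left out. The summed level of the list went from 8355 and 8086 CPM in starvation to 6504 and 6766 CPM and 5806 and 5344 CPM, lower at each time. *nol-58*, which encodes a core protein of the box C/D small nucleolar ribonucleoproteins, was at 83 and 81.1 CPM in starvation, 352 and 381 CPM at 3 h and 149.8 and 160.1 CPM at 15 h (log2 fold change -1.24 ± 0.08, edgeR adjusted p = 6.26e-12). Its partner *nol-56* was at 355 and 397 CPM and then 175 and 175 CPM (log2 fold change -1.11 ± 0.09, edgeR adjusted p = 4.41e-10), and *rpoa-2*, for the second largest subunit of RNA polymerase I, at 68.1 and 68.8 CPM and then 34.2 and 28.2 CPM (log2 fold change -1.13 ± 0.10, edgeR adjusted p = 3.86e-09). The groups were apart in all 3 genes. Mitochondrial ribosomal protein genes shared the direction, with 24 of 65 lower and 1 higher (median -0.20). That count was 14 without replicate 1 at 15 h and 37 with the length trend removed.

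The genes of the cytosolic ribosomal proteins themselves went up, by small amounts: 61 of 81 rose and 0 fell (median 0.53, against 20.2% higher among genes of at least 10 CPM). The count depended on single libraries. It was 11 without replicate 2 at 15 h, 26 without replicate 1 at 3 h, and 64 with the length trend removed. Library size scaling alone gave 32 higher and 0 lower. The list consists of short genes, and its median without replicate 2 at 15 h was 0.27. *rpl-3* was at 3669 and 4049 CPM and then 4926 and 7044 CPM (log2 fold change 0.63 ± 0.12, edgeR adjusted p = 0.00114), with groups apart, and kept its call when any library was left out. Translation factors were divided, 5 of 41 higher and 14 lower, with 3 higher without replicate 1 at 3 h and 25 lower with library size alone. *inf-1*, the gene for the helicase eIF4A, was at 42.8 and 47.7 CPM in starvation, 506 and 556 CPM at 3 h and 288 and 314 CPM at 15 h (log2 fold change -0.82 ± 0.10, edgeR adjusted p = 3.65e-07). *eef-1B.1*, an elongation factor gene, rose from 699.6 and 777 CPM to 1075 and 1334 CPM (log2 fold change 0.71 ± 0.10, edgeR adjusted p = 1.21e-05). Of the aminoacyl-tRNA synthetase genes 6 of 20 fell and 0 rose, with 2 falls without replicate 2 at 3 h.

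Most proteasome genes rose, 27 of 33, with 0 lower (median 0.36, against 8.88% higher among all genes and 20.2% among those of at least 10 CPM), and 18 of them had also risen in the first step. Without replicate 2 at 15 h 13 rose, and without either 3 h library 18. By library size alone, 1 rose and 0 fell. *rpt-1*, an ATPase subunit gene of the proteasome base, was at 60.7 and 62.6 CPM and then 82.7 and 90.1 CPM (log2 fold change 0.49 ± 0.08, edgeR adjusted p = 0.000116), and *rpn-11*, the gene of the deubiquitinating subunit, at 46.8 and 46.7 CPM and then 63.1 and 73.2 CPM (log2 fold change 0.54 ± 0.09, edgeR adjusted p = 5.08e-05). Among chaperone genes 4 of 24 rose and 3 fell, shares near the 20.2% and 14.3% of genes of at least 10 CPM, and 2 rose without replicate 2 at 15 h or replicate 1 at 3 h. *hsp-60*, of the mitochondrial matrix, was at 14.8 and 16.5 CPM in starvation, 174 and 194 CPM at 3 h and 78.2 and 64.7 CPM at 15 h (log2 fold change -1.37 ± 0.09, edgeR adjusted p = 3.06e-11). The cytosolic *hsp-90* was at 1333 and 1283, 1249 and 1276 and 2518 and 2944 CPM (log2 fold change 1.11 ± 0.08, edgeR adjusted p = 3.95e-11), with a call in the second step and none in the first, and cytosolic *hsp-1*, an HSP70 gene, rose from 1457 and 1592 CPM to 2279 and 2508 CPM (log2 fold change 0.65 ± 0.08, edgeR adjusted p = 1.84e-06). DNA replication genes built up, with 15 of 31 higher at 15 h, 0 lower (median 0.34) and 11 of them raised in both steps. The count was 4 without replicate 2 at 15 h and 6 without replicate 1 at 3 h. With library size alone 2 rose and 2 fell. *mcm-5*, a subunit gene of the replicative helicase, was at 13.6 and 14.8 CPM in starvation, 24.5 and 25.6 CPM at 3 h and 35.4 and 36.7 CPM at 15 h (log2 fold change 0.52 ± 0.09, edgeR adjusted p = 0.000156), and *rfc-2*, of the clamp loader, at 9.68 and 10.2 CPM and then 14.6 and 16.3 CPM (log2 fold change 0.63 ± 0.13, edgeR adjusted p = 0.00107). The groups of *rpt-1*, *rpn-11*, *hsp-60*, *hsp-90*, *hsp-1*, *mcm-5* and *rfc-2* were apart.

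**Figure D4:**
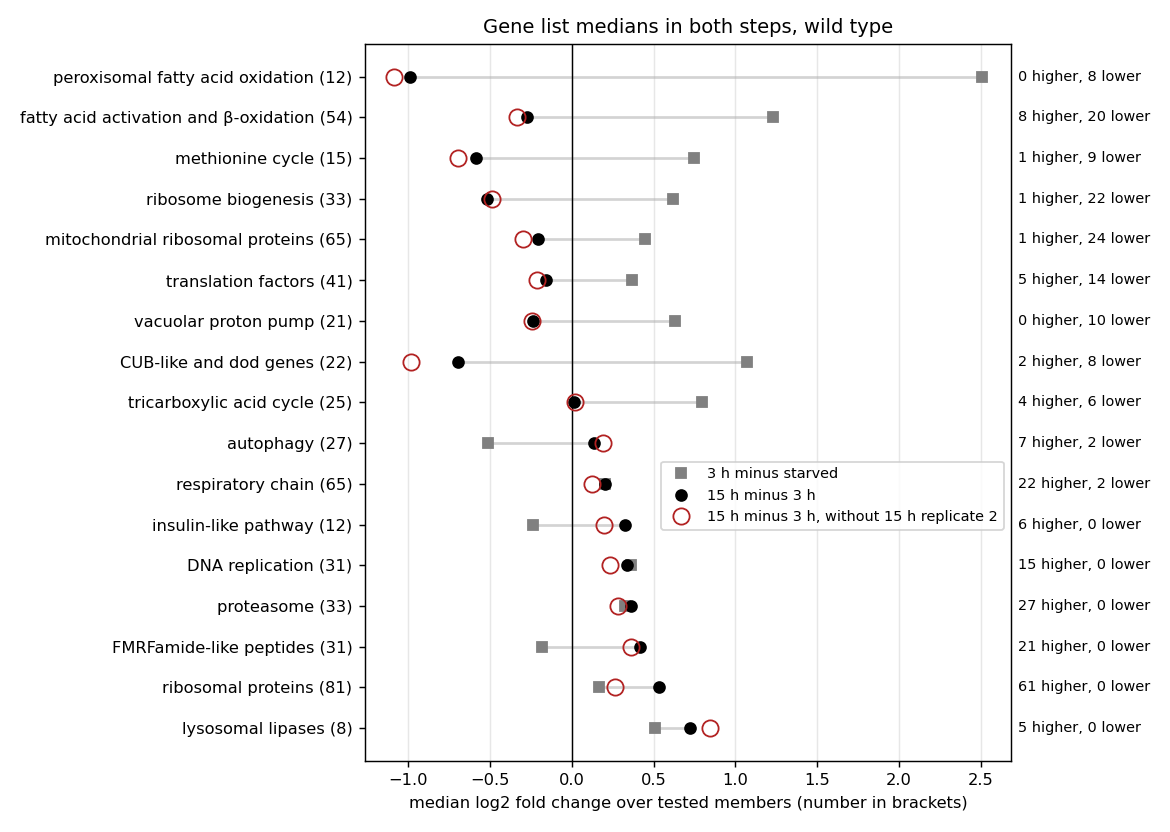
Median log2 fold change of 17 gene lists over their tested members in wild type, for CeMM 3 h minus starved (grey) and CeMM 15 h minus 3 h (filled black, and open without replicate 2 at 15 h). The vertical line marks 0, and the numbers at the right are members higher and lower at 15 h, of the members tested. Peroxisomal oxidation has the early median at 2.51 and the later one at -0.99.

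Subunits of the vacuolar proton pump, which acidifies lysosomes and in the intestine exports protons to the gut lumen, were lower at 15 h in 10 of 21 genes and higher in 0 (median -0.23), 9 of them after an early rise. The count was 16 with the length trend removed. Over genes of at least 10 CPM 20.2% were higher and 14.3% lower at 15 h. *vha-12*, a B subunit gene, was at 243 and 267 CPM in starvation, 886 and 968 CPM at 3 h and 613 and 708 CPM at 15 h (log2 fold change -0.49 ± 0.08, edgeR adjusted p = 8.06e-05). The intestinal *vha-6*, an a subunit gene, was level over the first step and went from 639 and 727 CPM to 437 and 452 CPM in the second (log2 fold change -0.62 ± 0.09, edgeR adjusted p = 6.19e-06). Both genes' groups were apart. Cathepsin genes went both ways, with 4 of 28 higher and 9 lower: *cpr-5* fell from 228 and 317 CPM to 75 and 91 CPM (log2 fold change -1.71 ± 0.17, edgeR adjusted p = 2.47e-05), whereas *cpr-6*, also of the cathepsin B type, rose from 158 and 183 CPM to 444 and 514 CPM (log2 fold change 1.49 ± 0.10, edgeR adjusted p = 2.04e-11).

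Of the autophagy genes 7 of 27 were higher at 15 h and 2 lower, against 20.2% and 14.3% of genes of at least 10 CPM. All 7 that rose had fallen in the first step. With library size alone the counts turned, to 1 higher and 3 lower, and without replicate 2 at 3 h 4 were higher. *lgg-1*, the Atg8 gene whose protein coats autophagosomes, was at 639.7 and 649.7 CPM in starvation, 399 and 371 CPM at 3 h and 539 and 676 CPM at 15 h (log2 fold change 0.66 ± 0.11, edgeR adjusted p = 0.000143), and *atg-3*, for the enzyme that attaches LGG-1 to lipid, at 30.8 and 30.05 CPM and then 42.1 and 40.6 CPM (log2 fold change 0.44 ± 0.10, edgeR adjusted p = 0.00245). *epg-2*, a scaffold gene of aggregate autophagy, fell from 61.3 and 51.1 CPM to 36.9 and 38.9 CPM (log2 fold change -0.57 ± 0.09, edgeR adjusted p = 5.9e-05). In the insulin-like pathway 6 of 12 genes rose and 0 fell. With library size alone 3 rose and 3 fell. The kinase genes *akt-1*, at 242 and 279 CPM in starvation, 132 and 131 CPM at 3 h and 201 and 203 CPM at 15 h (log2 fold change 0.62 ± 0.09, edgeR adjusted p = 8.83e-06), and *akt-2*, at 72.3 and 74.4 CPM and then 107 and 106 CPM (log2 fold change 0.54 ± 0.09, edgeR adjusted p = 9.49e-05), regained part or most of their early loss. *pdk-1*, for the kinase that activates them, rose from 41.9 and 47.9 CPM to 73.8 and 69.6 CPM (log2 fold change 0.68 ± 0.11, edgeR adjusted p = 4.82e-05). *daf-2*, the receptor gene, was at 222 and 257 CPM and 369 and 320.5 CPM and *daf-16* at 392 and 394 CPM and 386 and 304 CPM, and neither passed the test (edgeR adjusted p = 0.191 and 0.212).

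Of 18 transcripts listed as targets of DAF-16 or markers of starvation 7 rose and 2 fell after 3 h. The shares were 8.88% and 6.14% of all genes and 20.2% and 14.3% of those of at least 10 CPM. With library size alone 6 of the 18 rose and 5 fell. Of the 8 that had dropped by 3 h, 4 rose again. *sod-3*, a mitochondrial superoxide dismutase gene, was at 13.3 and 10.9 CPM in starvation, 0.487 and 0.381 CPM at 3 h and 3.92 and 4.99 CPM at 15 h (log2 fold change 3.34 ± 0.23, edgeR adjusted p = 4.13e-11). *mtl-1*, a metallothionein gene, was at 169 and 159.9, 52.4 and 63.8 and 142 and 199 CPM (log2 fold change 1.55 ± 0.16, edgeR adjusted p = 2.28e-05). The long noncoding RNA gene *tts-1* was at 16157 and 14246 CPM in starvation, 1677 and 1516 CPM at 3 h and 4204 and 3597 CPM at 15 h (log2 fold change 1.29 ± 0.16, edgeR adjusted p = 0.000305). For each of these the 15 h values lay above both 3 h values, and only *mtl-1* reached its starved range. *aqp-1*, an aquaglyceroporin gene, instead rose at both steps, from 15.7 and 14.6 CPM to 148 and 149 CPM and then 298 and 283 CPM (log2 fold change 0.97 ± 0.08, edgeR adjusted p = 8.63e-10). *mxl-3*, a Max-like bHLH gene that represses lipase genes in fed worms, was at 5.81 and 6.97 CPM in starvation, 211 and 248 CPM at 3 h and 346 and 534 CPM at 15 h (log2 fold change 0.94 ± 0.24, edgeR adjusted p = 0.0285). That last call was lost without replicate 2 at 15 h and without either 3 h library (edgeR adjusted p = 0.151, 0.162 and 0.0703 in that order).

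The gluconeogenesis gene *pck-2*, for phosphoenolpyruvate carboxykinase, was at 991 and 1042 CPM in starvation, 575 and 589.6 CPM at 3 h and 1123 and 1214 CPM at 15 h (2.01-fold, edgeR adjusted p = 3.47e-09), and its relative *pck-1* rose from 565 and 607 CPM to 896 and 971 CPM (log2 fold change 0.67 ± 0.08, edgeR adjusted p = 8.97e-07). *icl-1*, the glyoxylate cycle gene, was at 44 and 81.2 CPM in starvation, 2011 and 2438 CPM at 3 h and 4496 and 3844 CPM at 15 h. Its second step did not pass the test (log2 fold change 0.91 ± 0.36, edgeR adjusted p = 0.161), although the groups were apart. Of the tricarboxylic acid cycle genes 4 of 25 rose and 6 fell, with 2 and 3 without replicate 2 at 15 h and 1 and 7 without replicate 1 at 3 h. With library size alone 0 rose and 11 fell. For this list and the respiratory chain, the shares among all genes of at least 10 CPM were 20.2% higher and 14.3% lower. *idh-1*, an isocitrate dehydrogenase gene, fell from 548 and 531 CPM to 324 and 415 CPM (log2 fold change -0.55 ± 0.09, edgeR adjusted p = 0.000107). Respiratory chain genes gave 22 of 65 higher and 2 lower with all libraries, but 0 higher without replicate 2 at 15 h, 0 without replicate 1 at 3 h and 14 without replicate 2 at 3 h. With library size alone 2 were higher and 5 lower.

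The oligopeptide transporter gene of the gut, *pept-1*, was at 59.5 and 61.2 CPM in starvation, 291 and 279 CPM at 3 h and 113 and 126 CPM at 15 h (log2 fold change -1.25 ± 0.08, edgeR adjusted p = 1.26e-11), with all 3 groups apart. Its course was shared by the intestinal genes *dod-19* and *irg-8*, of the CUB-like families that respond to infection. *dod-19* went from 112 and 116 CPM to 23.2 and 27.6 CPM (log2 fold change -2.17 ± 0.12, edgeR adjusted p = 4.27e-10) and *irg-8* from 78.8 and 63.2 CPM to 17.8 and 20.2 CPM (log2 fold change -1.90 ± 0.11, edgeR adjusted p = 7.1e-13), and 8 of 22 in this list fell while 2 rose. The large families went both ways: 25 of 229 C-type lectin genes rose and 34 fell (16 rises without replicate 1 at 3 h), and 14 of 67 *ugt* genes rose and 18 fell (8 rises without replicate 2 at 3 h). Over all genes 8.88% rose and 6.14% fell.

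Of the heterochronic genes 0 of 14 rose and 2 fell, and of the molting genes 4 of 32 rose and 1 fell. These shares were near the 15.0% called over all genes and below the 34.5% called among genes of at least 10 CPM. In these lists 12 and 27 genes, in that order, reached 10 CPM on average. *nhr-23*, a nuclear receptor gene that drives the molting cycle, was at 12.6 and 9.97 CPM at 3 h and 17.3 and 19.6 CPM at 15 h (log2 fold change 0.71 ± 0.12, edgeR adjusted p = 4.98e-05). Of the 154 cuticle collagen genes, 37 of which reached 10 CPM on average, 17 were higher and 15 lower, against 8.88% and 6.14% of all genes. Without replicate 2 at 3 h, which leaves only the library with molting transcripts, 36 were lower. Without replicate 1 at 3 h 11 were higher and 8 lower, and so were they without replicate 2 at 15 h. *col-42* was at 1202 and 1216 CPM in starvation, 164 and 149 CPM at 3 h and 511 and 623 CPM at 15 h (log2 fold change 1.86 ± 0.09, edgeR adjusted p = 1.57e-14), and *col-98* at 252 and 283, 106 and 83 and 400.4 and 440.1 CPM (log2 fold change 2.15 ± 0.10, edgeR adjusted p = 9.81e-15). Of the 86 hedgehog-related genes 9 were higher and 8 lower (median -0.24), against 8.88% and 6.14% of all genes. Among the higher ones *grd-3* rose from 15.4 and 14.5 CPM to 75.9 and 102 CPM (log2 fold change 2.57 ± 0.11, edgeR adjusted p = 9.66e-15) and *grd-10* from 33.1 and 33.5 CPM to 76.7 and 111 CPM (log2 fold change 1.49 ± 0.13, edgeR adjusted p = 3.6e-07), and their groups were apart. *hil-1*, a linker histone gene, was at 255 and 269 CPM in starvation, 28.1 and 31.2 CPM at 3 h and 146 and 152 CPM at 15 h (log2 fold change 2.33 ± 0.09, edgeR adjusted p = 3.19e-15).

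FMRFamide-like neuropeptide genes rose, 21 of 31 with 0 lower (median 0.41), and between 17 and 20 rose when any one of the 4 libraries was left out. Scaled by library size alone, they were 10 higher and 1 lower. *flp-1* was at 355 and 376 CPM in starvation, 298 and 303 CPM at 3 h and 481 and 508 CPM at 15 h (log2 fold change 0.72 ± 0.09, edgeR adjusted p = 1.43e-06), above starvation, and *flp-18* at 163 and 155, 141 and 137 and 247 and 232 CPM (log2 fold change 0.78 ± 0.09, edgeR adjusted p = 1.5e-07). The other neuropeptide-like genes had 40 of 74 higher and 3 lower, and 22 higher without replicate 2 at 15 h and 25 without replicate 2 at 3 h. Many genes of both lists are short. With the length trend removed, 15 of the 31 FMRFamide-like genes rose and 1 fell (median 0.26). Of the 74 others 27 then rose and 4 fell, and their median was 0.18 against 0.42 in the main fit. *daf-7*, the TGF-β ligand gene that promotes growth over dauer entry, rose at both steps, from 128 and 123 CPM to 244 and 252 CPM and then 388 and 429 CPM (log2 fold change 0.72 ± 0.08, edgeR adjusted p = 1.83e-07). The insulin-like peptide gene *ins-27* went from 24.2 and 22.8 CPM to 65.2 and 85.6 CPM (log2 fold change 1.68 ± 0.17, edgeR adjusted p = 1.06e-05).

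Summed levels of tissue markers differed between the times. The 14 neuronal markers summed to 4744 and 4848 CPM at 3 h and 5375 and 5154 CPM at 15 h, the 11 body wall muscle markers to 12819 and 13713 CPM and 16210.2 and 15199.6 CPM, and the 10 intestinal markers to 3287 and 3691 CPM and 2593 and 2755 CPM. In all 3 sums the groups were apart, and of these 3 the intestinal sum was the one that was lower at 15 h. The 4 coelomocyte markers were also lower, at 79.9 and 78.8 CPM and then 69.8 and 69.6 CPM. The 8 hypodermal markers were higher, at 739 and 768 CPM and then 773 and 783 CPM. The groups overlapped in the sums of the pharyngeal and germline markers. By gene the neuronal list was level: 1 of its members rose and 1 fell (median -0.04). Among muscle markers 6 rose and 0 fell (median 0.41). *myo-3*, a myosin heavy chain gene, was at 1934 and 1885 CPM in starvation, 255 and 209.5 CPM at 3 h and 828 and 754 CPM at 15 h (log2 fold change 1.77 ± 0.18, edgeR adjusted p = 7.82e-05), whereas the other body wall myosin heavy chain gene, *unc-54*, was at 5459.9 and 5942 CPM and 6298 and 5810.1 CPM, with overlapping groups (log2 fold change 0.09 ± 0.12, edgeR adjusted p = 0.77). Of the intestinal markers 5 fell and 1 rose (median -0.40), with 3 falls without replicate 1 at 15 h. The GATA factor gene *elt-2* went from 35.8 and 33.8 CPM to 21.5 and 27.1 CPM (log2 fold change -0.52 ± 0.10, edgeR adjusted p = 0.000463) and the gut esterase gene *ges-1* from 42.9 and 52.5 CPM to 95.5 and 85.5 CPM (log2 fold change 0.92 ± 0.13, edgeR adjusted p = 3.65e-05). The part of tissue share in the changes of intestinal and neuronal genes was not tested.

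In *hlh-30(lf)* larvae the same interval moved more genes (27.4% of those tested), 4251 higher (14.1%) and 4010 lower (13.3%). The difference between the 2 genotypes was tested as an interaction, and it passed for 6311 genes (20.9%), with 3106 positive (a more positive change in wild type, 10.3%) and 3205 negative (10.6%). Of the wild-type rises 1066 were also rises in *hlh-30(lf)* and 576 were falls, and of the wild-type falls 400 were also falls and 656 were rises. The 576 and the 656 all passed the test of the difference. Across the 8595 genes of at least 10 CPM, which are not independent replicates, the changes of the genotypes had a Pearson's r of -0.0057.

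**Figure D5:**
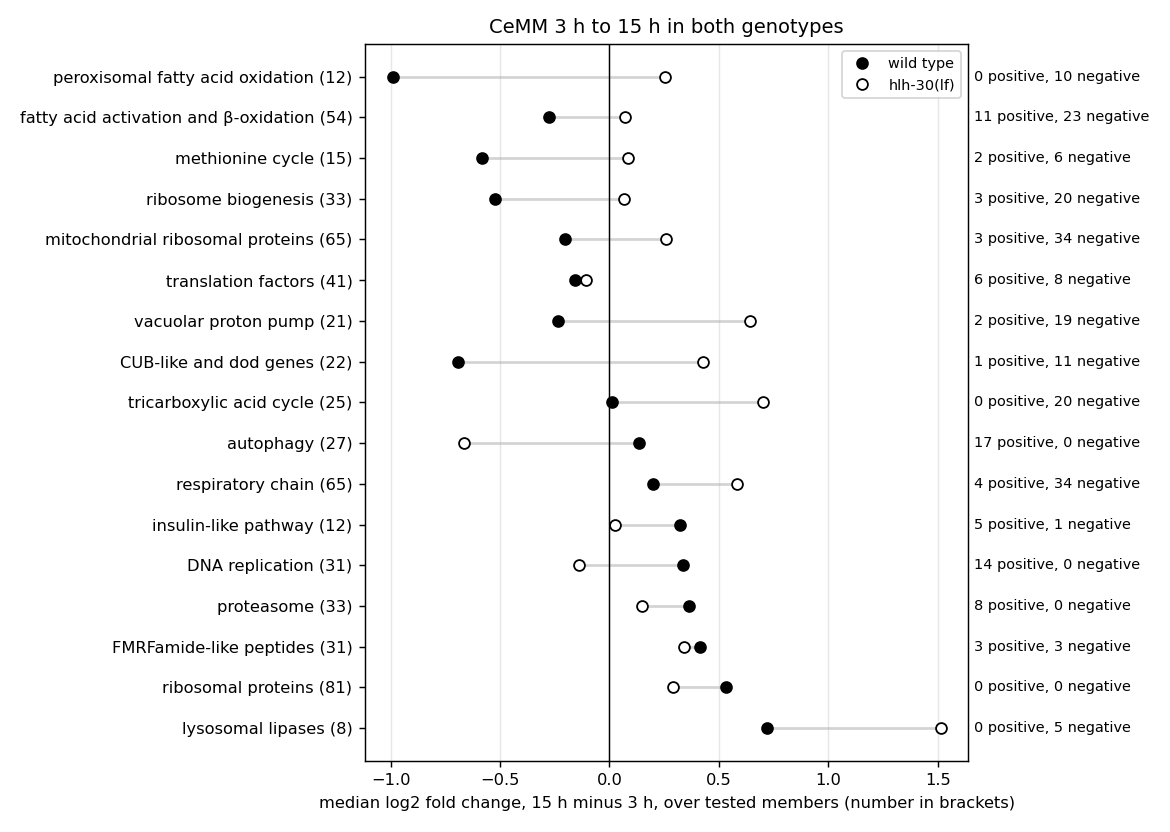
Median log2 fold change from CeMM 3 h to CeMM 15 h of the same 17 gene lists, in wild type (filled) and in *hlh-30(lf)* (open), over the tested members. The numbers at the right are members with a positive and a negative difference, wild type minus *hlh-30(lf)*. Autophagy has 17 positive and 0 negative differences, the vacuolar proton pump 2 and 19.

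Of the 1248 transient genes of wild type, 892 had a negative difference and 49 a positive one, and of the 1318 in the mirror group 724 had a positive difference and 84 a negative one. Both sets were chosen on wild-type 3 h and 15 h libraries that the interaction also uses, so these counts are a description. *sams-1* went from 149 and 154 CPM at 3 h to 286 and 278 CPM at 15 h in *hlh-30(lf)*, a rise where wild type fell (difference of log2 fold changes -2.84 ± 0.13, edgeR adjusted p = 2.62e-15). *pept-1* likewise rose there, from 109 and 112 CPM to 214 and 227 CPM (difference -2.26 ± 0.12, edgeR adjusted p = 2.3e-14), and so did *vha-6*, from 205 and 194 CPM to 563 and 560.3 CPM (difference -2.11 ± 0.12, edgeR adjusted p = 2.7e-13). In wild type all 3 had fallen. *lgg-1* took the opposite course, from 998 and 996 CPM to 251 and 241 CPM in *hlh-30(lf)* (difference 2.68 ± 0.15, edgeR adjusted p = 2.26e-11), as did *sod-3*, from 7.88 and 7.82 CPM to 2.91 and 2.8 CPM (difference 4.80 ± 0.29, edgeR adjusted p = 3.66e-13) and *myo-3*, from 1918 and 1782 CPM to 915 and 916 CPM (difference 2.78 ± 0.25, edgeR adjusted p = 1.62e-05). These 3 rose in wild type and fell in *hlh-30(lf)*.

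Among the lists, autophagy genes had 17 of 27 lower and 0 higher at 15 h in *hlh-30(lf)*, with 17 positive differences and 0 negative. Over all genes 13.3% were lower and 14.1% higher there, and 10.3% had a positive and 10.6% a negative difference. The shares among genes of at least 10 CPM, a level that 26 autophagy and 20 proton pump genes reached, were not computed for these 2 comparisons. Proton pump genes had 19 of 21 higher and 2 lower in *hlh-30(lf)*, with 19 negative differences and 2 positive. Of the peroxisomal genes 10 of 12 had a negative difference. *acox-1.1* was at 308 and 325 CPM and then 201 and 178 CPM in *hlh-30(lf)*, a smaller fall than in wild type (difference -1.32 ± 0.13, edgeR adjusted p = 1.22e-08), and *daf-22* was at 118 and 124 CPM and then 142 and 135 CPM (difference -1.76 ± 0.13, edgeR adjusted p = 4.73e-11). Of the ribosome biogenesis genes 20 of 33 had a negative difference and 3 a positive one, *nol-56* going from 102 and 105 CPM to 175 and 173 CPM in *hlh-30(lf)* (difference -1.85 ± 0.13, edgeR adjusted p = 4.29e-12). DNA replication genes had 14 positive differences and 0 negative.

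The early peak of several leading genes in wild type was met by a late rise in *hlh-30(lf)*. *ctsa-3.1* went there from 3.43 and 3.66 CPM at 3 h to 57.2 and 55.1 CPM at 15 h (difference -6.20 ± 0.15, edgeR adjusted p = 1.1e-20), so that its 15 h values lay above those of wild type, 38.6 and 37.5 CPM. *pcp-2* went from 2.09 and 1.64 CPM to 56.7 and 53.3 CPM (difference -7.28 ± 0.26, edgeR adjusted p = 2.08e-10) and *clec-4* from 6.21 and 5.4 CPM to 66.6 and 77.5 CPM (difference -6.59 ± 0.18, edgeR adjusted p = 5.12e-20). All 3 were at or below 6.21 CPM in *hlh-30(lf)* at 3 h, where wild type was at its peak. *irg-3* had a smaller rise there, from 16.6 and 13.7 CPM to 34.6 and 32.1 CPM (difference -4.55 ± 0.27, edgeR adjusted p = 2.85e-07).

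Lipid genes did not follow a single pattern. *lipl-2* was near 0 in *hlh-30(lf)* at 3 h, with 0.302 and 0.499 CPM, and at 4.71 and 4.1 CPM at 15 h, a rise on the log2 scale that was larger than that of wild type from a lower level (difference -1.17 ± 0.27, edgeR adjusted p = 0.00146). *lipl-3* had at most 0.0549 CPM in every *hlh-30(lf)* library of the interval. *acs-2* was at 1.02 and 1.16 CPM and 5.69 and 1.25 CPM in *hlh-30(lf)*, and its difference did not pass the test (1.09 ± 0.80, edgeR adjusted p = 0.496), although the levels were below every wild-type library of the same time. *hacd-1* was at 6.81 and 6.01 CPM and 7.5 and 4.7 CPM there (difference 2.66 ± 0.30, edgeR adjusted p = 6.66e-05). Some genes moved in the same direction in both genotypes. *col-98* rose from 178 and 174 CPM to 807 and 789 CPM in *hlh-30(lf)* (difference -0.03 ± 0.13, edgeR adjusted p = 1), and *inf-1* fell from 541 and 531 CPM to 298 and 267 CPM (difference 0.10 ± 0.14, edgeR adjusted p = 0.79). Of the ribosomal protein genes 24 of 81 rose in *hlh-30(lf)*, against 14.1% of all genes. Their median there was 0.29, and that of the shortest eighth of genes of at least 10 CPM was 0.22. The difference between genotypes passed for 0 of the 81, against 20.9% of all genes. In wild type their count of rises depended on single libraries, as given above.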

How the data were processed

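RNA from pooled whole L1 larvae was sequenced by the authors as single-end 50 nt reads, aligned with STAR 2.0.4b to Ensembl release 76 of WBcel235, and counted with Subread featureCounts (1.4.5 in the study's methods). The deposited tables hold per gene the authors' counts of uniquely aligned, unambiguous reads, with no normalization, and CPM and RPKM values that the authors derived from them. The CPM and RPKM columns were recomputed from the counts and gave the same values, and only the counts were used here. Multi-mapping reads were left out by the authors, so genes with near-identical copies are undercounted. Whether strand was used is not given in the sources used here, so overlapping and antisense genes cannot be told apart.

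Of 46726 listed genes, the 30177 with a count in any of the 16 libraries were fitted in one model with 1 coefficient per group (edgeR 4.0.16, TMM, robust quasi-likelihood fit, R 4.3.3). P-values were adjusted by Benjamini-Hochberg over all of them and called at 0.05. Contrasts were 15 h minus 3 h and 3 h minus starved in wild type, 15 h minus 3 h in *hlh-30(lf)*, and the difference of the 15 h minus 3 h changes. ± gives standard errors. In simulated data with 200 changed genes over 29038 genes, the 15 h against 3 h test recovered 189, and 5.97% of its calls were false. In the study's libraries the same test called 4531 genes, and whether these rates hold there was not tested. The study's own method, limma-voom (limma 3.58.1), and DESeq2 1.42.0 were alternatives, beside other scalings, a filter on low counts, each replicate left out, a replicate block, and, chosen after the data were seen, a fit with the gene length trend removed. The members, gene lists and named genes were chosen with earlier results of these data known. The named genes are *hlh-30*, the 8 largest rises and 8 largest falls of at least 10 CPM with no overlap, 5 genes of each course over both steps, and up to 4 called members of each list (all members of lists of 12 or fewer), of which the text gives those that were stable or whose function is known. *vit-2*, *sqt-3* and *dpy-17* were named after their values were seen. Gene names came from a table of Ensembl identifiers. No list was tested for enrichment.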

Additional observations from a re-analysis of the deposited data

Results flagged for a closer look

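The change from 3 h to 15 h differed between wild type and *hlh-30(lf)* by the test of the difference for 6311 genes, 3106 with a positive difference (wild type minus *hlh-30(lf)*) and 3205 with a negative one. Among the genes of the report the positive differences were 4.80 ± 0.29 on the log2 scale for *sod-3*, 2.78 ± 0.25 for *myo-3*, 2.68 ± 0.15 for *lgg-1* and 2.66 ± 0.30 for *hacd-1*. The negative ones were -7.28 ± 0.26 for *pcp-2*, -6.59 ± 0.18 for *clec-4*, -6.20 ± 0.15 for *ctsa-3.1*, -4.55 ± 0.27 for *irg-3*, -2.84 ± 0.13 for *sams-1*, -2.26 ± 0.12 for *pept-1*, -2.11 ± 0.12 for *vha-6*, -1.85 ± 0.13 for *nol-56*, -1.76 ± 0.13 for *daf-22*, -1.32 ± 0.13 for *acox-1.1* and -1.17 ± 0.27 for *lipl-2*. With 2 libraries in each group, no group was large enough for a search for single outlying samples.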

How the results depend on the processing

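The statistical method, the filter on low counts, RLE factors, a fit on wild-type groups alone and normalization without rRNA genes or without the 100 most abundant genes left the counts over all genes and of each course within 1.5 times their value (for 15 h against 3 h, between 2440 and 2948 higher and between 1631 and 2334 lower). Library size alone moved the median of genes of at least 10 CPM from 0.01 to -0.23 and gave 1326 higher and 4150 lower (75.8% of calls lower against 40.9%), with courses of 2337 (up then down), 671 (down then up), 252 (up in both), 335 (down in both), 403 (late rise) and 1478 (late fall), and 1928 positive genotype differences. Against a 2-fold change the counts were 182 and 94, the courses in the same order 75, 80, 14, 6, 88 and 13, and the genotype differences 727 positive and 899 negative. With the gene length trend removed, an alternative chosen after the data were seen, 269 genes fell in both steps and 710 fell late. Leaving out one library at a time gave between 1789 and 2655 higher, between 1213 and 1756 lower, between 900 and 1157 up then down, between 921 and 1263 down then up, between 311 and 564 up in both, between 71 and 157 down in both, between 450 and 1018 late rises, between 194 and 564 late falls, and between 2708 and 3200 positive and between 2555 and 3072 negative genotype differences. No called gene of the report changed direction, and each of the 5 that lost a call without a library is given there with its value. With library size alone *atg-3*, *fat-3*, *mcm-5*, *pcca-1* and *rpt-1* lost theirs, and on wild-type groups alone *F18E3.11*, *F18E3.13* and *fat-6* did. Against a 2-fold change 53 of the 105 called genes of the report lost their call. The genes given were chosen partly for being stable, so neither these counts nor the lack of reversals measures how stable the calls are. The study's methods say that a replicate was run with its controls, and whether the library numbers mark such runs is not given in the sources used here. Same-numbered wild-type libraries of 3 h and 15 h had a correlation of deviations of -0.125 over 13529 genes, and the 10 pairs of groups ranged from -0.226 to 0.344, so the numbers were not used to pair them. Of the lists, in the direction most members took, counts above 3 moved further for ribosomal proteins (26 higher without the 100 most abundant genes, which left 43 members), chaperones (2 there, 8 with DESeq2) and autophagy (11 with DESeq2). The replicate block gave 2643 higher and 1830 lower, and the block with exchanged numbers 2733 and 1886. Where a library was left out, the lone sample was assumed to vary like the other groups. Depth limits genes near 3 counts, and 2 libraries a group limit the rest.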
